A study of Homo sapiens with 2 samples.

Results

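The mRNAs described here are 10 components and targets of the Hippo pathway, taken as every cluster whose deposited gene symbol was CTGF (current symbol CCN2), CYR61 (current symbol CCN1), ANKRD1, AMOTL2, AXL, LATS1, LATS2, YAP1, WWTR1 or TEAD1. All 10 symbols were found among 7712 genes with a listed cluster, and together they held 384 of 233546 clusters. HITS-CLIP, in which proteins are fixed to bound RNA by ultraviolet light, pulled down with an antibody and the attached RNA fragments sequenced, was carried out in duplicate on MDA231-BrM2a cells, a brain metastatic population (not a single clone) raised from MDA-MB-231 breast cancer cells. Both replicates belonged to a single group: the cells carried Flag-tagged, wild-type RBM47, an RNA-binding protein, behind a promoter induced by doxycycline, and they received 1 ng/ml doxycycline for 3 days. The pull-down therefore reports on an introduced protein, no control library was analysed here, and the labels do not say whether the replicates were separate cultures.

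In the Hippo pathway, a kinase relay ends in LATS1 and LATS2, which phosphorylate the transcriptional co-activators YAP (encoded by YAP1) and TAZ (encoded by WWTR1) and so keep them out of the nucleus. When the relay is off, YAP and TAZ bind TEAD factors such as TEAD1 on DNA and raise a set of target genes, of which CTGF, CYR61 and ANKRD1 are the usual readouts. AXL, a receptor tyrosine kinase, AMOTL2, an angiomotin family scaffold that binds YAP, and LATS2 itself are also YAP targets.

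Every member except AMOTL2 had a cluster that the deposited labels place across the end of the reading frame. The stop codons below are those of the 4 members with the most tags. The 30 bases around each stop codon are shown because they mark the stretch of mRNA where the largest clusters of CTGF, CYR61 and ANKRD1 cross from coding sequence into the 3'UTR. Capitals mark the stop codon. The letters are those of the canonical GENCODE transcripts on GRCh37, at chr6:132270389-132270418 (minus strand) for CTGF, chr1:86048711-86048740 (plus strand) for CYR61, chr10:92672608-92672637 (minus strand) for ANKRD1 and chr19:41765795-41765824 (plus strand) for AXL.
CTGF: ggagacatggcaTGAagccagagagtgaga
CYR61: aaatttagggacTAAatgctacctgggttt
ANKRD1: atagctacattcTGAggcaaacgacagact
AXL: gaggatggtgccTGAgacaaccctccacct
The cluster coordinates below are on hg18, the build named in the submitters' processing notes, and cannot be set against those GRCh37 positions. No hg18 sequence was used here, so letters at the other clusters are not shown.

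Tags were most numerous, among the 10 members, on the classical YAP target mRNAs. In clusters of at least 10 tags, where a tag is a unique read, CTGF held 10429 tags and ranked 20 among the 5600 genes with such a cluster. ANKRD1 followed with 7357 tags (rank 33), CYR61 with 4064 (rank 89) and AXL with 3232 (rank 128). TEAD1 held 2900 tags (rank 155), YAP1 1961 (rank 281), LATS2 1099 (rank 595), WWTR1 690 (rank 976) and LATS1 195 (rank 2309). AMOTL2 had no cluster of 10 tags. More than 100 tags were thus found in 9 of the 10 mRNAs, against 39.9% of all genes in the table. The members were chosen with results of these data known, so these counts are a description and carry no test.

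The order of the members held in both libraries with a single exception. Counting all deposited clusters, CTGF had 2.07 tags per 1000 tags of replicate 1 and 2.40 in replicate 2. ANKRD1 had 1.55 and 1.68, and CYR61 0.866 and 0.917, in the same order of replicates. These 3 ranges did not overlap. AXL had 0.661 and 0.748 and TEAD1 0.628 and 0.751 tags per 1000, so this pair could not be ordered beyond the spread between replicates. YAP1 had 0.536 and 0.538, LATS2 0.223 and 0.268, WWTR1 0.162 and 0.168, and LATS1 0.0881 and 0.0662. AMOTL2 was lowest with 0.00601 and 0.00487 tags per 1000. LATS1 and AMOTL2 were higher in replicate 1, and the other 8 were higher in replicate 2. The share of replicate 1 was 22.3% over all clusters but 20.8% in clusters of at least 100 tags. Scaling by the whole column does not allow for this difference with cluster size.

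**Figure D1:**
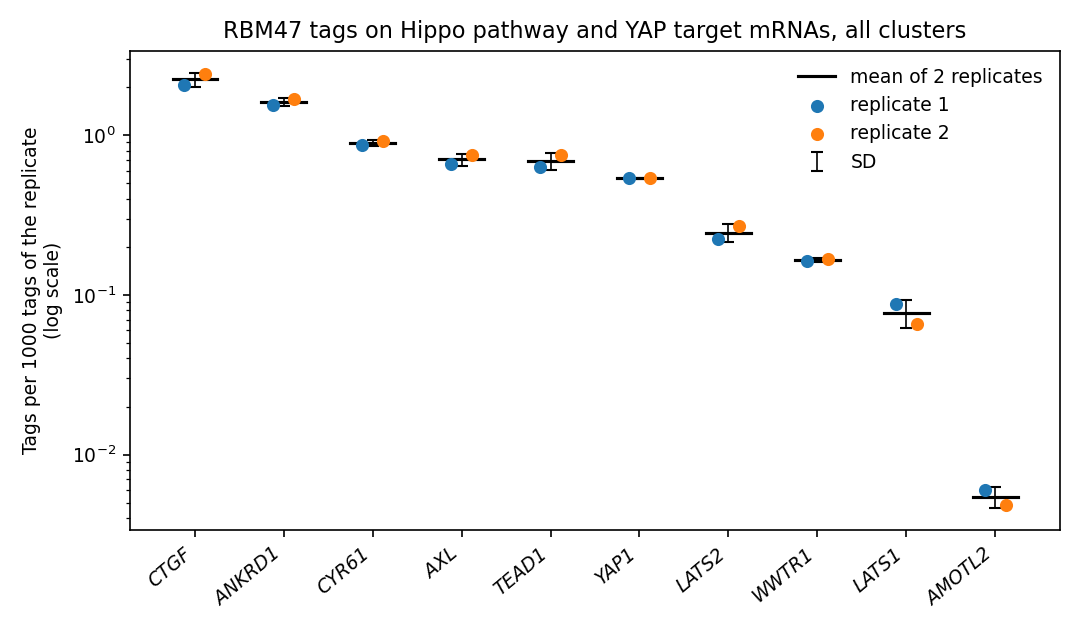
RBM47 tags on each of the 10 mRNAs per 1000 tags of the same replicate, on a log scale, over all deposited clusters; dots are the replicates, lines their mean and bars the SD (n = 2). CTGF lies highest at 2.07 and 2.40, AMOTL2 lowest at 0.00601 and 0.00487, and only AXL and TEAD1 overlap among neighbours.

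Neighbouring genes in the overall ranking could not be separated from CTGF and CYR61. CTGF, at 2.23 ± 0.233 tags per 1000 (SD, n = 2), stood between ATP13A3 at 2.31 ± 0.147 and NAV3 at 2.21 ± 0.0541. CYR61, at 0.891 ± 0.0362 (SD, n = 2), stood between TMTC3 at 0.895 ± 0.0445 and APP at 0.871 ± 0.0861. In each case the replicate ranges of the neighbours overlapped.

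Because the transcripts differ in length, tags in clusters not labelled intron alone were also expressed per kb of canonical transcript in GENCODE. Such clusters can extend into introns. On this scale CTGF had 4461 tags per kb and ranked 5 among 7210 genes with a matched coding transcript, ANKRD1 had 3580 (rank 6) and CYR61 1784 (rank 16). The median over those genes was 19.2 tags per kb. AXL had 691 tags per kb, YAP1 297, TEAD1 296, LATS2 201, WWTR1 142, LATS1 40.2 and AMOTL2 4.72. TEAD1, whose transcript of 9417 nt was the longest of the set, was above YAP1 in total tags but not per kb. AMOTL2 was the only member below the median of all genes. Tags follow both the binding of RBM47 and the amount of an RNA in the cell, and since RNA levels were not used here the contributions cannot be told apart.

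The secreted matricellular proteins CTGF and CYR61 came from compact genes whose 3' end cluster held the larger part of the tags. In CTGF (Entrez gene 1490), a single cluster at 132310982 to 132312398 (chromosome 6, minus strand), labelled CDS and 3'UTR, held 1961 tags in replicate 1 and 7986 in replicate 2. It carried 95.4% of the gene's tags and was the cluster with the seventh most tags in the table. Its density was 7025 tags per kb, against 594 tags per kb in the 2 clusters labelled coding sequence and 574 in the 3 labelled 5'UTR and CDS. No CTGF intron cluster was listed.

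CYR61 (Entrez gene 3491) had the same arrangement at a lower level. Its main cluster, 85821021 to 85822258 (chromosome 1, plus strand), also labelled CDS and 3'UTR, held 724 tags in replicate 1 and 2713 in replicate 2. That was 84.5% of the gene's tags at 2778 tags per kb. The 4 coding-sequence clusters held 28 to 154 tags each and 765 tags per kb together. A cluster of 276 tags within the body of the gene was labelled 5'UTR and CDS. In the maps of the target genes the last cluster is the densest in both CTGF and CYR61.

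Concentration of a gene's tags in a single cluster was uncommon in the table. Among 3074 genes with more than 100 tags, the median share in the largest cluster was 21.4%, and 4.72% of the genes had at least 60% of their tags in 1 cluster. CTGF, CYR61, ANKRD1 and AXL were 4 such genes. They are the members with the most tags, and their annotated 3'UTRs of 1088, 908, 770 and 1862 nt were shorter than the median gene's 1899 nt. LATS2, with 1834 nt, was also below that median but had 15.4% in its largest cluster. Whether 3'UTR length or tag number sets how tags are divided into clusters was not tested. The largest cluster was labelled CDS and 3'UTR in 8.23% of the 3074 genes and in 3 of the 9 members above 100 tags. The 60% bound was chosen after the values were seen.

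ANKRD1 (Entrez gene 27063), an ankyrin repeat protein of the nucleus and sarcomere, was bound along its whole length, introns included. Its largest cluster, 92661827 to 92663266 (chromosome 10, minus strand), labelled CDS and 3'UTR, held 1009 tags in replicate 1 and 3802 in replicate 2, or 65.0% of the gene's tags. A further 8 clusters labelled coding sequence held 52 to 311 tags. There were also 30 intron clusters of 5 to 128 tags.

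In ANKRD1, clusters covered 85.7% of the stretch between the first and the last cluster, and intron clusters alone amounted to 57.6% of the annotated intron length. The median coverage was 0.0815% over 7004 genes with at least 1 kb of intron, and ANKRD1 ranked 14 among them. Per kb of intron it had 138 tags (rank 9), while the median gene had 0.0729. The intron tags made up 14.7% of the ANKRD1 tags in replicate 1 and 12.6% in replicate 2, counted in clusters of at least 10 tags. Within the clusters themselves the density was 240 tags per kb under the intron label and 740 under the coding-sequence label. At the end of the mRNA it was 3343. The clusters labelled coding sequence alone spanned 2017 nt together, and a single one was 850 nt long. The coding sequence of the canonical transcript is 960 nt, so these clusters extend beyond it and their density is not that of coding sequence only.

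AXL (Entrez gene 558) carried most of its tags in the 3'UTR and the rest across its coding exons. The largest cluster, 46458317 to 46459510 (chromosome 19, plus strand), was labelled 3'UTR and held 417 tags in replicate 1 and 1576 in replicate 2. In clusters of at least 10 tags, the 3'UTR label alone accounted for 66.0% ± 1.90 (SD, n = 2) of the AXL tags and coding sequence for 20.8% ± 3.46 (SD, n = 2). The cluster spanning the stop codon held 404 tags. The 17 coding-sequence clusters held 6 to 184 tags each. A single intron cluster of 5 tags was listed over a gene with 37827 nt of annotated intron.

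**Figure D2:**
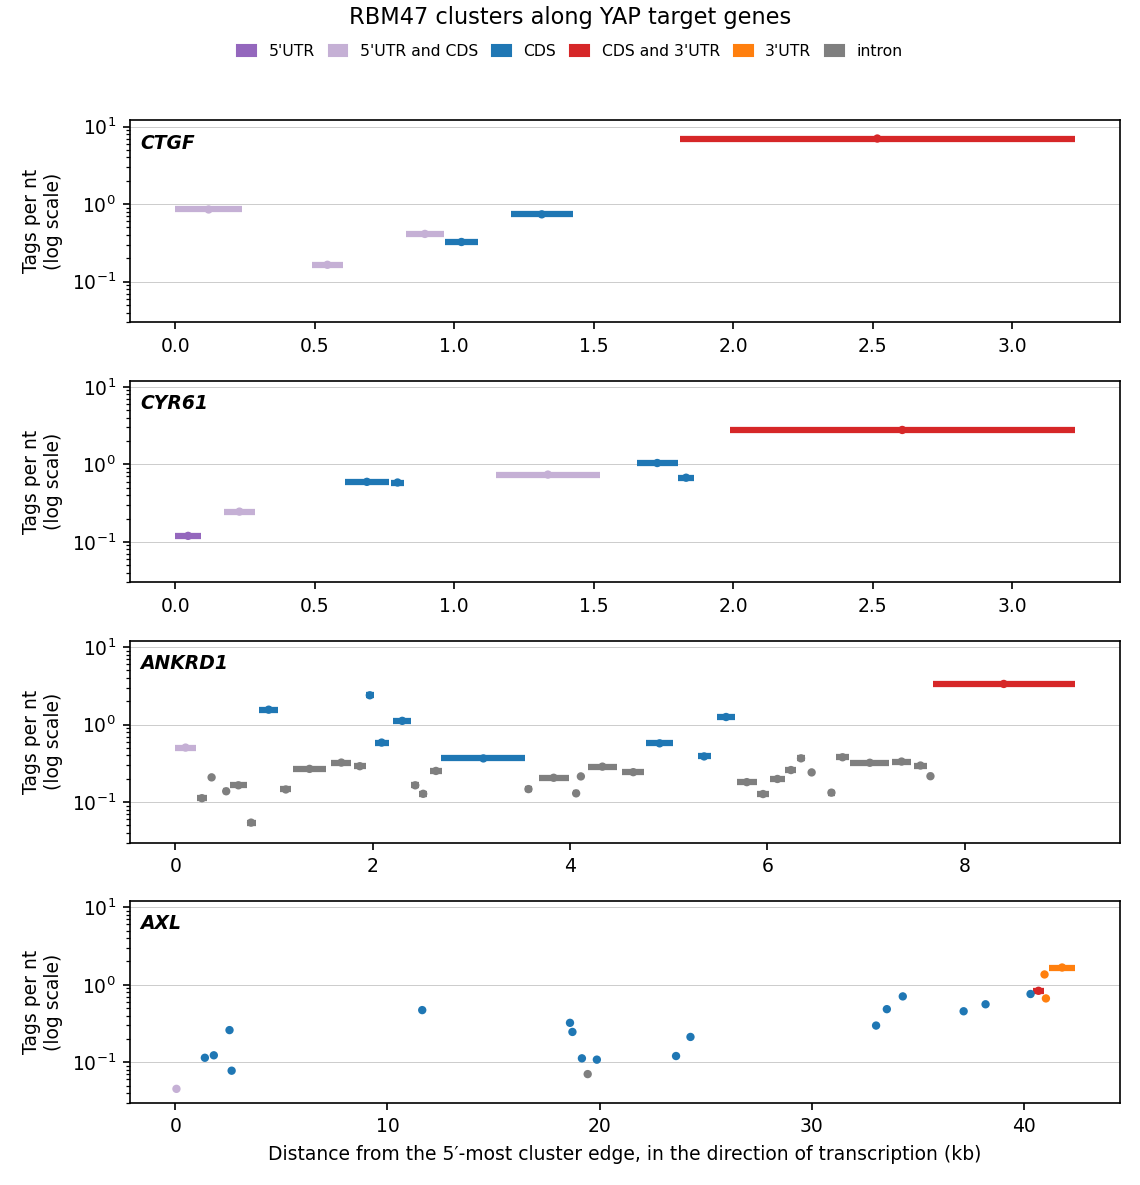
Clusters along CTGF, CYR61, ANKRD1 and AXL in the direction of transcription, by distance from the first cluster edge in kb; each line spans 1 cluster at its density in tags per nt (log scale), coloured by location label, with a dot at its middle. The densest cluster of each gene lies at the 3' end in CTGF, CYR61, ANKRD1 and AXL, and ANKRD1 alone of these 4 has a row of intron clusters.

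AMOTL2 (Entrez gene 51421) stood apart from the other targets. Only 3 clusters were listed, all labelled 3'UTR, with 9, 7 and 7 tags. Each had 2 tags in replicate 1, and the replicate 2 tags were 7, 5 and 5. At this depth the level of AMOTL2 was near the minimum of 5 tags at which the table begins.

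Among the co-activators and their DNA-binding partner, the tags of YAP1 and TEAD1 were listed in many small clusters, with no single large one. YAP1 (Entrez gene 10413) had 113 clusters, the most of any member, and its largest, with 220 tags, made up 9.21% of the total. TEAD1 (Entrez gene 7003) had 98 clusters, of which the largest, a 3'UTR cluster at 12916104 to 12916643 (chromosome 11, plus strand), held 48 tags in replicate 1 and 253 in replicate 2. In clusters of at least 10 tags, the 3'UTR label alone held 70.2% ± 0.987 (SD, n = 2) of the YAP1 tags and 82.7% ± 1.80 (SD, n = 2) of the TEAD1 tags. The 3'UTR clusters numbered 15 in YAP1 and 27 in TEAD1. Together they spanned 2928 nt in YAP1, beside an annotated 3'UTR of 3484 nt, and 6204 nt in TEAD1, beside 7515 nt. Many of them adjoin, and whether the breaks between them separate distinct sites was not tested.

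Intron clusters of YAP1 and TEAD1 were numerous but small. YAP1 had 89, with a median of 7 tags and at most 50, and TEAD1 had 60, with a median of 6 tags and at most 16. The median 3'UTR cluster held 86 tags in YAP1 and 69 in TEAD1. Over all genes the medians were 7 tags in intron and 13 tags in 3'UTR clusters. The typical intron cluster of these 2 genes was thus at or near the median of the table in tags. Per kb of intron, however, YAP1 had 6.68 tags and TEAD1 1.67, against 0.0729 in the median gene. They ranked 387 and 1123 among 7004 genes with at least 1 kb of intron. In YAP1, 26 of the intron clusters fell within 10 kb, between 101541668 and 101550343 (chromosome 11, plus strand), where they held 65 tags in replicate 1 and 227 in replicate 2. In TEAD1 the densest 10 kb held 12 intron clusters with 94 tags.

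The TAZ mRNA WWTR1 (Entrez gene 25937) had fewer tags than that of its paralogue YAP1, by total and per kb. Of its tags in clusters of at least 10 tags, 76.7% ± 0.876 (SD, n = 2) were in 16 clusters labelled both 3'UTR and intron. The largest of these held 11 tags in replicate 1 and 66 in replicate 2. Clusters labelled intron alone numbered 4 and held 5 to 7 tags each, over 135754 nt of annotated intron. YAP1 had 117577 nt of intron and 786 intron tags, against 23 in WWTR1.

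The LATS kinases differed in level. LATS2 (Entrez gene 26524) had 223 tags in replicate 1 and 936 in replicate 2, and LATS1 (Entrez gene 9113) had 88 and 231. Per kb of transcript LATS2 had 201 tags and LATS1 40.2. In LATS2, 10 clusters labelled 3'UTR held 8 to 169 tags, 9 coding-sequence clusters held 5 to 88 and 2 5'UTR clusters held 11 and 32. In LATS1 the largest cluster held 26 tags, 7 in replicate 1 and 20 in replicate 2, and the 11 coding-sequence clusters held 5 to 11 tags. Of the LATS1 tags in clusters of at least 10 tags, 36.2% ± 0.0505 (SD, n = 2) carried the 3'UTR label alone. A further 53.1% ± 0.121 (SD, n = 2) carried the labels 3'UTR and intron together. These shares rest on 47 tags in replicate 1 and 149 in replicate 2, and the small SDs leave out counting error.

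**Figure D3:**
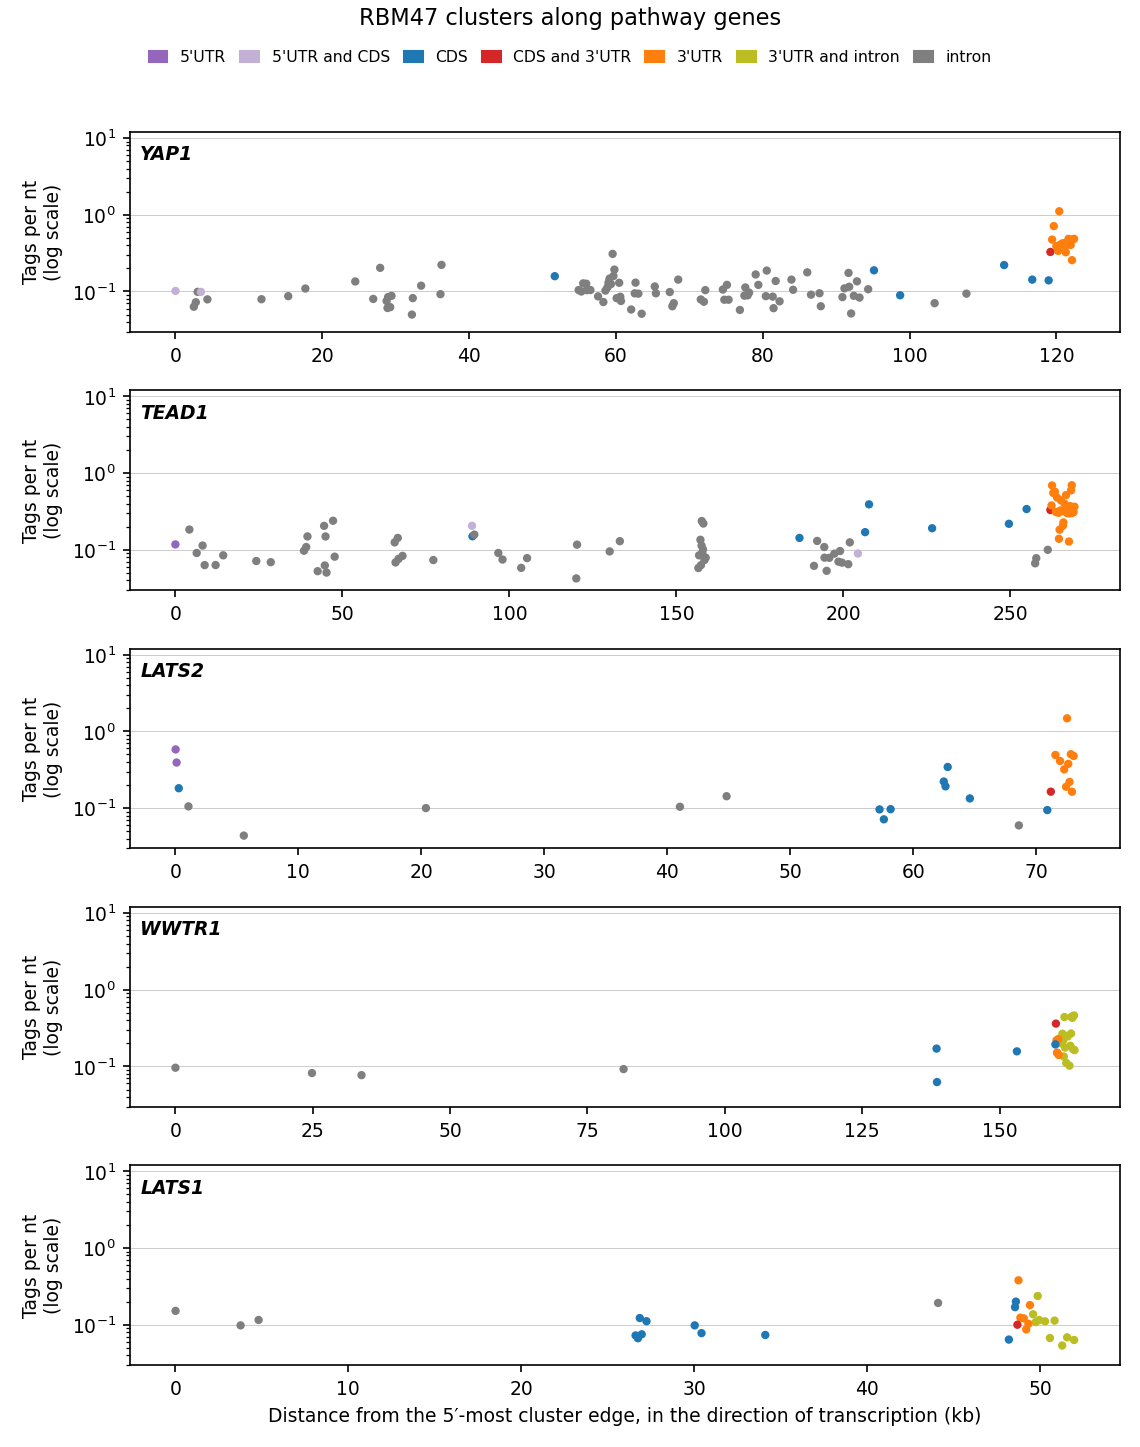
Clusters along YAP1, TEAD1, LATS2, WWTR1 and LATS1 in the direction of transcription, by distance from the first cluster edge in kb and density in tags per nt (log scale), coloured by location label. In all 5 genes the clusters crowd together at the 3' end, while the 89 intron clusters of YAP1 and the 60 of TEAD1 are spread along the gene at lower density.

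Most of the members' pooled tags lay at the 3' end of the mRNA. Clusters labelled 3'UTR, alone or with coding sequence, held 80.5% ± 0.357 (SD, n = 2) of the members' tags in clusters of at least 10 tags, and introns alone held 4.87% ± 0.657 (SD, n = 2). Over all genes the corresponding shares were 58.5% ± 0.386 and 18.9% ± 0.539 (SD, n = 2). The value for the members is weighted towards CTGF, which held 32.7% of their tags. The label 3'UTR alone accounted for 21.2% ± 0.380 (SD, n = 2), and 31.6% by total tags when CTGF was left out; the largest clusters of CTGF, CYR61 and ANKRD1 also overlap coding sequence.

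**Figure D4:**
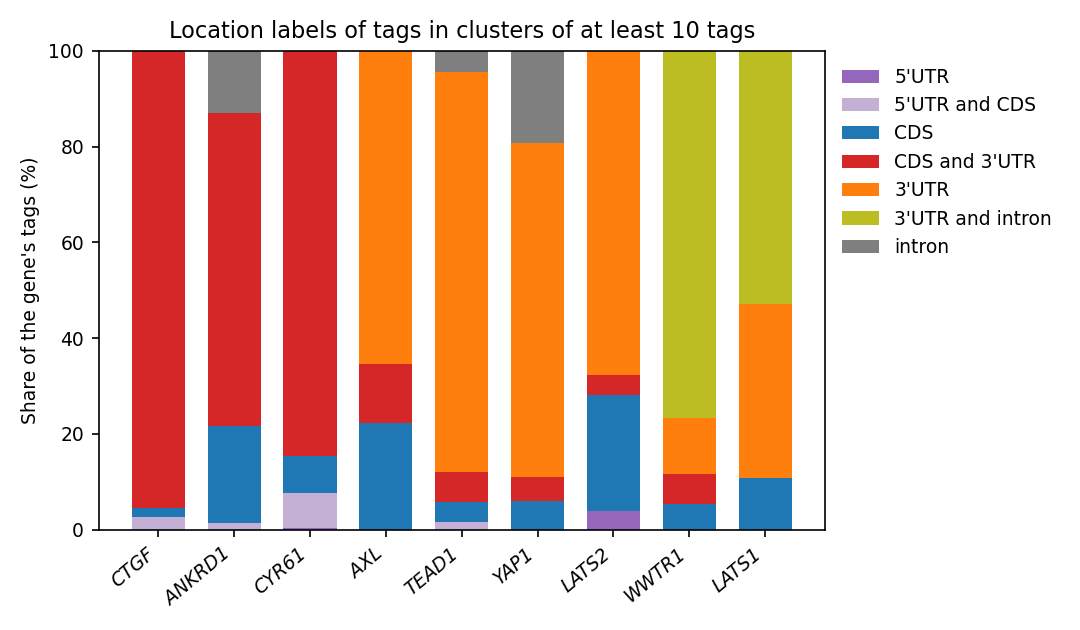
Share of each gene's tags by location label, in percent, over clusters of at least 10 tags, for the 9 members with such clusters; AMOTL2 had none. Clusters across CDS and 3'UTR dominate CTGF, CYR61 and ANKRD1, the 3'UTR alone dominates AXL, TEAD1, YAP1 and LATS2, and combined 3'UTR and intron labels dominate WWTR1 and LATS1.

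The 3'UTR sequences of the members were not uniform in base composition. In the canonical transcripts, U made up 28.4% of the 3'UTR in AMOTL2, the lowest value, and 36.3% in YAP1, the highest. The median over 7085 genes with a 3'UTR of at least 100 nt was 32.5%, with a 10th percentile of 25.7% and a 90th percentile of 37.03%, and 5 of the 10 members were above that median. The run UUUUUU, searched on the transcript strand only, occurred in all 10 members and in 81.7% of those 3'UTRs. The longest U run was 30 bases in ANKRD1 and 31 in AXL, and 0.663% of the 3'UTRs had a run of at least 30. In CTGF and CYR61 it was 6 bases. These letters describe whole 3'UTRs and were not matched to clusters.

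Agreement between the libraries was tested cluster by cluster. The clusters held 999047 tags from replicate 1 and 3489697 from replicate 2, and the share of replicate 1 was 22.3%. Against that share, the two-sided exact binomial test with Benjamini-Hochberg adjustment over all 233546 clusters called 2 of the 384 member clusters, beside 0.0111% of all clusters. The CTGF cluster at the 3' end had a replicate 1 share of 19.7% (Wilson 95% interval 18.9 to 20.5) and an adjusted p of 1.56e-05 in the exact test. The other was an ANKRD1 coding-sequence cluster at 92665273 to 92665448, with 21 tags in replicate 1 and 198 in replicate 2, a share of 9.59% and an adjusted p of 0.0129 in the exact test. Neither was called when the expected share was taken from clusters of at least 100 tags, where it was 20.8%. The test compares these libraries and not conditions. It can call a small difference only where tags are many, so the member count and the share of all clusters are not alike. The 2 called clusters held 9947 and 219 tags, while the median over all genes was 7 in intron and 13 in 3'UTR clusters.

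**Figure D5:**
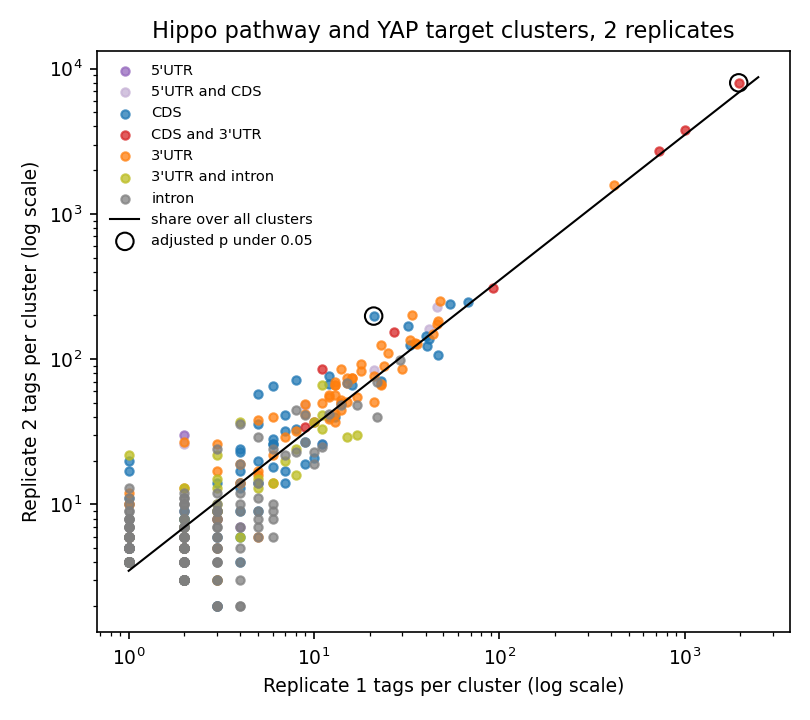
Tags of the 384 member clusters in replicate 1 and replicate 2 (both log scales), coloured by location label; the line is the replicate 1 share of 22.3% over all clusters and the circles mark the clusters with an adjusted p under 0.05. The points follow the line, and the circles mark the CTGF cluster of 9947 tags and the ANKRD1 coding-sequence cluster of 219 tags.

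Summed per gene over all deposited clusters, 2 of the 10 members were called by the same test, beside 1.52% of the 7712 genes. CTGF had a replicate 1 share of 19.8% (Wilson 95% interval 19.0 to 20.6) with an adjusted p of 2.02e-05 in the exact test, against an expected 22.04%. TEAD1 had 19.3% (17.98 to 20.69) with an adjusted p of 0.0143 in the exact test. Neither was called when only clusters of at least 10 tags were summed, where the adjusted p in the exact test was 0.263 for CTGF and 0.182 for TEAD1. The shares of the other members ranged from 19.2% in LATS2 to 27.6% in LATS1. Members had a median of 2805 tags, against 96 over all genes, and the exact test calls smaller differences where tags are many. The member count and the share of all genes are therefore not alike. Under a beta-binomial test, which allows for extra spread between the libraries, no member was called.

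No cluster lay on the opposite strand within the stretch from the first to the last cluster of any member, and no cluster of another gene lay there on the same strand. For CTGF and CYR61, LATS1 and LATS2, and YAP1 and WWTR1, which are 3 paralogous pairs, the treatment of reads that match more than 1 place is not given in the sources used here.

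The rest of the pathway was followed through a list of 32 further Hippo components. Of these, 25 had a listed cluster and 16 had more than 100 tags. That was 64% of those with a cluster, against 39.9% of all genes in the table, and 50% of those listed. FRMD6, a FERM domain protein upstream of the kinases, had 19009 tags, 81.5% of them in introns. The protocadherin FAT1 had 12481 tags, the kinase TAOK1 3437, and PTPN14, a phosphatase that binds YAP, 2803. The LATS co-activator MOB1B had 2280 tags and its paralogue MOB1A 251. VGLL3, a TEAD co-factor, had 1112 tags, with 98.8% at the end of the mRNA. Of the upstream MST kinases, STK4 had 936 tags and STK3 156, and SAV1, their scaffold, had 595. No cluster was listed for TEAD2, TEAD3 or TEAD4, the other members of the TEAD family, while NF2, an upstream regulator, had a single cluster of 7 tags.

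Other YAP targets were also among the bound mRNAs. In a list of 21 further targets, 17 had a cluster and 14 had more than 100 tags. That was 82.4% of those with a cluster, against 39.9% of all genes in the table, and 66.7% of those listed. CRIM1, a transmembrane regulator of BMP signalling, had 9463 tags. Thrombospondin 1 (THBS1) had 7743 tags, the ectonucleotidase NT5E 5158 and tissue factor (F3) 4305. PTPN14 is also on this list, and MYOF followed with 2299 tags and TGFB2 with 1398. The share of tags labelled 3'UTR, alone or with coding sequence, varied widely among these genes. It was 78.8% to 86.2% in THBS1, NT5E and F3 and 63.0% in CRIM1, but 12.7% in MYOF, 9.66% in TGFB2 and 7.35% in PTPN14. This share leaves out clusters labelled both 3'UTR and intron, so a low value does not show that the 3'UTR was little bound. The intron label alone held 61.94% of the MYOF tags, but 1.68% in PTPN14 and 0% in TGFB2, in clusters of at least 10 tags. Which labels held the remaining tags of PTPN14 and TGFB2 was not examined. The median over the 17 targets with a cluster was 1433 tags in all deposited clusters, against 2805 in the 10 members, 290 in the 25 Hippo components and 96 over all genes. Both lists were drawn up with earlier results of these data known, and genes without a cluster may lack RNA, binding or depth.

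The labelled cell line was compared with its markers. Of 6 markers that these mesenchymal-like breast cancer cells should express, 4 were bound, namely VIM (3327 tags), CD44 (8404), CAV1 (2335) and SPARC (974). The other 2, the keratins KRT8 and KRT18, had no listed cluster and so went against the comparison. None of the 4 markers that such cells express at low levels (ESR1, PGR, GATA3 and CDH1) had a cluster. Since tags depend on binding, this comparison is weak.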

How the data were processed

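HITS-CLIP was carried out on Flag-RBM47 in 2 replicates of MDA231-BrM2a cells. The authors tailed, reverse transcribed and sequenced the RNA fragments, removed amplification copies through a random barcode and worked on the Galaxy platform. For each cluster, the deposited counts give unique tags by replicate and a total; every listed cluster had 1 or more from both replicates and a total of 5 or more. The replicate columns exceeded the authors' total in 58 of the 384 member clusters, by 94 tags in all. Novoalign and hg18 are named in the submitters' processing notes. Settings are not given in the sources used here. The replicate columns summed to 999047 and 3489697 tags, which is part of each library and not its depth. Wilson intervals cover counting error only.

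A gene's tags were summed over clusters of at least 10 tags by the authors' total, or over all deposited clusters where stated. Values per replicate are per 1000 tags of that replicate's column, as mean ± SD (n = 2). The replicate split was compared by exact binomial tests, two-sided, with p-values adjusted (Benjamini-Hochberg) over all clusters or genes (threshold 0.05), in Python 3.11.15 with SciPy 1.17.1, a procedure first tested on simulated data. No groups were compared. With no separate cultures named, p-values measure only the difference between these libraries. Lengths and letters came from canonical GENCODE v44lift37 transcripts on GRCh37, matched through RefSeq symbols for 93.5% of genes. The members and gene lists were chosen with earlier results of these data known. The named genes were all members, the genes next to CTGF and CYR61 in the ranking, and the 8 genes with most tags in each list, except that a gene among the YAP targets is not reported here. STK3, MOB1A and NF2 and the TEAD family were named in addition, after their values were seen. Alternatives were the tag minimum, the scaling, the expected share, a beta-binomial test and each replicate alone.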

Additional observations from a re-analysis of the deposited data

Results flagged for a closer look

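These values come from clusters without a gene symbol, which the comparisons above did not use, within 10 kb of the listed clusters of a member. A cluster of 5 tags, with a downstream label, lay on the CTGF strand at 132310797 to 132310894 on chromosome 6. A cluster of 25 tags (5 in replicate 1, 20 in replicate 2), labelled deep intergenic, lay at 46416364 to 46416385 on chromosome 19, on the strand opposite to AXL and outside its clusters. A cluster of 8 tags, labelled both downstream and upstream of a gene, lay on the LATS1 strand at 150018718 to 150018884 on chromosome 6. Since the table lists only clusters of 5 or more tags, their presence alone shows nothing about background, and there are no control samples to set them against.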

How the results depend on the processing

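More than 100 tags were found in 9 of the 10 members under each tag minimum except 30 tags, which left 8, and with each replicate left out the number was 7 to 9. Among the other Hippo components the 16 genes fell to 10 at a minimum of 30 tags, and ranged from 6 to 13 with a replicate left out. Among the other YAP targets the range was 8 to 13. In each case the lowest value was that without replicate 2, the library with fewer tags then being used alone. The share of member tags labelled 3'UTR alone was 21.3% by total tags, 20.7% in all deposited clusters, 29.7% as a share of clusters, 31.6% without CTGF and 37.2% as the mean of the members' own shares. With combined 3'UTR labels added it was 82.7%. With a replicate left out it was 21.1% to 21.6%.

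The number of member clusters with discordant replicates, 2, fell to 0 with the expected share from the median ratio over clusters, 0 with that from clusters of at least 100 tags, 0 under a beta-binomial test with overdispersion from clusters of at least 100 tags (added after the data were seen) and 1 when only clusters of at least 30 tags were tested. Over all clusters no overdispersion was estimated. The number of member genes, 2, became 4 with the median ratio over genes, 0 under the beta-binomial test and 0 in clusters of at least 10 tags. Tags of single members kept within 1.5 times, except LATS1 (317 in all clusters, 0 at 30 tags), WWTR1 (426 at 30 tags) and AMOTL2 (23 in all clusters). No paired analysis was possible because both replicates belong to 1 group.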
